A study of Homo sapiens with 8 samples.

Results

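The genes of the leukocyte integrins and of related adhesion molecules were examined for 2 histone marks in HL-60, a cell line that the labels trace to the peripheral blood of a patient with acute promyelocytic leukemia. The list held 9 genes (ITGAM, ITGAX, ITGAL, ITGB2, ITGA4, ITGA5, ITGB1, SELPLG and PECAM1). Of these, 8 could be placed on hg19, out of 20090 protein-coding genes on the autosomes and chromosome X. PECAM1 was not analysed here, because the annotation used holds no record for it. ATRA cells had received 1 μM all-trans retinoic acid, the natural ligand of the retinoic acid receptors, for 4 days, and control cells had received the same volume of its solvent, ethanol, for as long. Chromatin from each group was precipitated with an antibody against H3K4me3, a mark of active promoters, or against H3K27ac, a mark of active promoters and enhancers, with 2 libraries for each mark and group, 8 in all. All libraries come from 1 cell line, and the labels do not say whether replicates were separate cultures, so that p-values measure only the spread between these libraries.

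Integrins are receptors made of an alpha and a beta chain that bind cells and matrix after activation from inside the cell. The beta 2 chain, CD18, is encoded by ITGB2 and pairs in leukocytes with CD11a (ITGAL) as LFA-1, with CD11b (ITGAM) as Mac-1 or complement receptor 3, and with CD11c (ITGAX). The beta 1 chain (ITGB1) pairs with the alpha 4 chain (ITGA4) as VLA-4, which binds VCAM-1 and fibronectin, and with the alpha 5 chain (ITGA5) as the classical fibronectin receptor. SELPLG encodes PSGL-1, the mucin with which leukocytes roll on selectins. CD11b is the surface marker most often used to follow the granulocytic differentiation of HL-60 cells.

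The measurement was the length of DNA, in bp, under the peaks called in each library, over the gene body and 20 kb on each side. The number of reads behind each library is not recorded in peak files, so a longer length can come from a stronger or broader mark and from a deeper or cleaner library. H3K4me3 libraries held 13241 to 16487 peaks over 47.7 to 63.2 Mb. H3K27ac libraries held 15457 to 39332 peaks over 28.8 to 86.1 Mb, and the ATRA library of each replicate number covered more than its control. Groups were taken from the deposited labels. The study's text describes more peaks in control than in ATRA cells for both marks, the reverse of the libraries as labelled. Which is right could not be settled here, and every direction below would turn if the labels were exchanged. The total length was 0.22 (H3K4me3) and 0.87 (H3K27ac) higher in ATRA on the log2 scale. The window changes of the 8 genes were therefore also computed after dividing by the library total. Of 10 promyelocytic marker genes, 8 had an H3K4me3 peak at the transcription start site (TSS) in both ATRA libraries and 7 in both controls, MPO, CTSG, SPI1 and CSF3R among them. ELANE had none. None of the 4 T cell, 2 erythroid and 4 endothelial or epithelial marker genes carried H3K4me3 there in any library, while the B cell marker CD79A carried it in 3 of 4. H3K27ac lay at CD3E in both ATRA libraries, at CD2 in 1 control and at CD79A in 4 libraries, and at none of the erythroid, endothelial and epithelial markers.

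The promoter of ITGAM, where peaks were gained, and that of ITGA5, where H3K4me3 was in place in all libraries, are shown from 250 bases before the TSS (position 0) up to the base before the first annotated exon of any transcript of the gene. Bases are hg19, written 5′ to 3′ on the strand of the gene. Capitals mark matches, on either strand, to the ETS and PU.1 core GAGGAA, the C/EBP-like TTNNGCAA, the RUNX site TGTGGT, the GATA site AGATAA, the SP and KLF site GGGCGG and the TATA box TATAAA.
ITGAM, chr16:31271046-31271287, plus strand: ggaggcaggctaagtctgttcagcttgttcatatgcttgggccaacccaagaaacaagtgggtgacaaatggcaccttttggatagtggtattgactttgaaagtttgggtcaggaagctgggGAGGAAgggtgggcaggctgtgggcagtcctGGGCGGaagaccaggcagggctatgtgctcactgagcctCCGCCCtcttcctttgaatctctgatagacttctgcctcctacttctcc
ITGA5, chr12:54813051-54813300, minus strand: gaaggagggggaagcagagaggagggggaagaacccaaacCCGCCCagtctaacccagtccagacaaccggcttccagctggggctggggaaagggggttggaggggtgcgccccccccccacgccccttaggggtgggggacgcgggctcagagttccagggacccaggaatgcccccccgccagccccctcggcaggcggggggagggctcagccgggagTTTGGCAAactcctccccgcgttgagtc

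The promoters differed in base composition. Over the 250 bases, GC content was 53.2% for ITGAM, 59.6% for ITGAX, 52.4% for ITGAL, 60.4% for ITGB2 and 50.4% for SELPLG, with 2 to 9 CpG dinucleotides. It was 72.8% for ITGA4, 70.0% for ITGA5 and 78.4% for ITGB1, with 12 to 32 CpG dinucleotides. GAGGAA was found in 5 of the 8 promoters (ITGAM, ITGAL, ITGB2, ITGB1 and SELPLG) and in 23.2% of all promoters of this length. In ITGAM it lay at -127 to -122, and in ITGB2 a match on each strand lay at -73 to -68 and -53 to -48. GGGCGG was found in 4 of the 8 and in 58.7% of all promoters. TTNNGCAA was found in ITGA5 alone (7.11% of all), and TGTGGT in SELPLG alone (8.92% of all). AGATAA and TATAAA were found in none of the 8. The half-site of retinoic acid receptors, AGGTCA, was searched as an exact direct repeat spaced by 5 or by 2 bases and was found in none of 20086 promoters. This search cannot detect repeats that differ from the exact letters, and it does not set the 8 genes apart. These matches describe letters only.

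ITGAM and ITGAX lie head to tail on chromosome 16, at 31271288 to 31344213 and 31366455 to 31394320 on the plus strand, and were taken as 1 locus. Across it, H3K4me3 covered 7335 and 3967 bp in the ATRA libraries against 1004 and 534 bp in the controls. H3K27ac covered 27241 and 32214 bp in ATRA against 1945 and 12654 bp in the controls. Both marks were longer in each ATRA library than in each control, with log2 changes of 1.91 for H3K4me3 and 1.89 for H3K27ac (1.78 and 1.30 after division by the library total), computed as (mean ATRA + 1000 bp) over (mean control + 1000 bp). Within replicate numbers the H3K27ac change was 3.26 and 1.28, and the control replicate 2 held 11 peaks where control replicate 1 held 2.

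**Figure D1:**
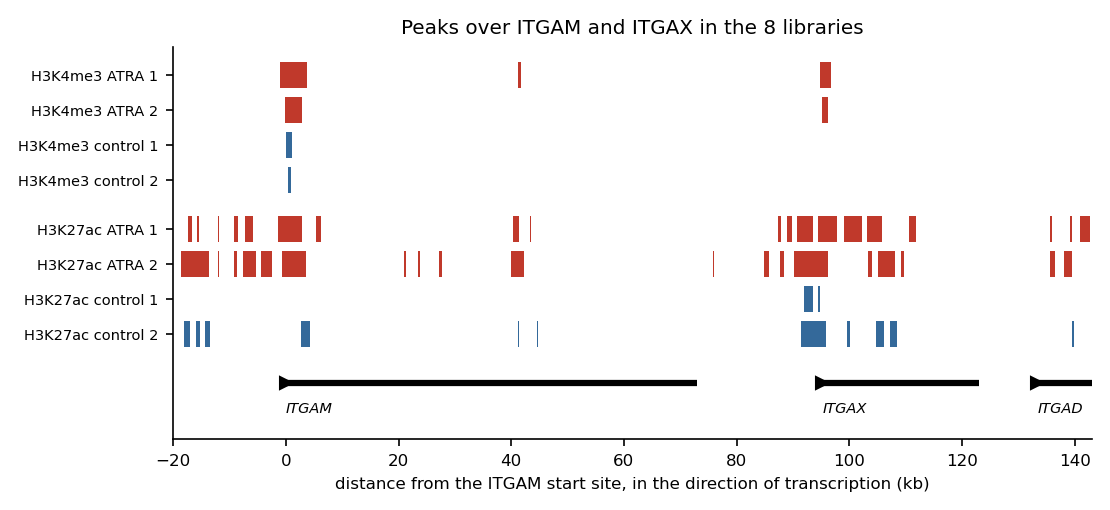
Peaks of H3K4me3 (upper 4 rows) and H3K27ac (lower 4 rows) in the 8 libraries, plotted by distance from the ITGAM start site in kb, with gene bodies as black bars and arrowheads at start sites. ATRA libraries (red) show H3K27ac around both start sites, while the control libraries (blue) have no H3K27ac peak at the ITGAM start site and no H3K4me3 peak at that of ITGAX.

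At the start of ITGAM, the H3K4me3 peak was 4818 and 3013 bp long in ATRA and 1004 and 534 bp in the controls. The control peaks began 67 and 339 bp downstream of the TSS, whereas both ATRA peaks spanned it and reached 3709 and 2960 bp into the gene. Their deposited −log10 q was 11.9 and 35.3 in ATRA and 3.001 and 44.9 in the controls, so the short peak of control replicate 2 had the highest value. Of the 250 bases before the TSS, 250 and 52 lay under H3K4me3 in ATRA and none in the controls. For H3K27ac, peaks of 4305 and 4159 bp covered the ITGAM TSS and all 250 bases in ATRA, and neither control had a peak there. Over the ITGAM window, H3K4me3 covered 5393 and 3013 bp in ATRA against 1004 and 534 bp in the controls. Ranked by log2 change among all genes with an H3K4me3 peak, ITGAM stood at percentile 99.3. By limma the log2 change was 1.53 ± 0.30 (SE), with an adjusted p of 0.248, or 0.0048 with the replicate number as a block. H3K27ac covered 13665 and 22342 bp against 1066 and 5974 bp, a limma log2 change of 2.29 ± 0.67 with an adjusted p of 0.166, or 0.0036 with the block. The fit with the block was run on unscaled lengths only, here and below.

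ITGAX was the gene whose start site carried H3K4me3 in both ATRA libraries and in neither control. Its peaks were 1942 bp (from -498 to 1443) and 954 bp (from 16 to 969) long, and no H3K4me3 peak lay anywhere in the control window. Such a gain was seen at 0.309% of all genes. H3K27ac was already present near this start in the controls, as a peak of 332 bp that ended at -450 in replicate 1 and as one of 4356 bp across it in replicate 2, against 3375 and 6083 bp in ATRA. Over the ITGAX window, which shares bases with that of ITGAM, H3K27ac covered 17129 and 14479 bp in ATRA and 1945 and 8157 bp in the controls. The groups did not overlap, and the limma adjusted p was 0.221, or 0.0248 with the block. For H3K4me3 it was 0.396, or 0.0653 with the block.

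Stretches under peaks in both ATRA libraries and in no control showed where the locus differed. For H3K27ac they summed to 9224 bp in 13 stretches. The longest ran from -615 to 2766 around the ITGAM TSS (chr16:31270681-31274062, 3382 bp). Others lay upstream of ITGAM at -7265 to -5845 (1421 bp), in its intron 14 at 40312 to 41142 (831 bp), between the genes at -4421 to -3761 from the ITGAX TSS (661 bp), and in ITGAX intron 14 (754 bp). Further downstream, 320 and 213 bp lay in ITGAD, a neighbouring alpha chain, whose own start site had no peak of either mark in any library. No stretch of either mark was covered in both controls and no ATRA library.

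ITGB2, on chromosome 21 at 46305868 to 46351904 (minus strand), was the other gene of the beta 2 family without overlap between the groups for both marks. H3K4me3 covered 32376 and 24913 bp of its window in ATRA and 19101 and 11350 bp in the controls. The groups did not overlap, and the log2 change was 0.87 (0.68 after scaling). Part of this length belongs to the start sites of PTTG1IP and SLX9, which lie in the window and had H3K4me3 in all 4 libraries. Over the gene body alone the values were 17108 and 10372 bp against 6184 and 2694 bp, a log2 change of 1.44. The peak at the TSS measured 16222 and 8622 bp in ATRA and 4732 and 2694 bp in the controls, and in both ATRA libraries it ran 1937 bp further into intron 1 (3506 to 5442) than in either control. Upstream, 1750 bp at -7519 to -5770 lay under H3K4me3 in both ATRA libraries and no control, within the TSS peak in replicate 1 and as a separate peak in replicate 2. Several annotated ITGB2 transcripts and the antisense gene ITGB2-AS1 start close to this TSS, and peaks carry no strand.

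H3K27ac over the ITGB2 window measured 21965 and 27839 bp in ATRA and 2552 and 13038 bp in the controls, a log2 change of 1.56 (0.93 after scaling), with no overlap. At the TSS, both ATRA libraries had a peak, control replicate 1 had none, and that of control replicate 2 began at position 1, so that all 250 bases before the TSS lay under H3K27ac in both ATRA libraries and in no control. Within intron 1, stretches of 1175 bp (5044 to 6218) and 1040 bp (7393 to 8432) were covered in ATRA alone, and a further 1906 bp lay just beyond the 3′ end of the gene. Limma gave adjusted p-values of 0.412 for H3K4me3 (0.0133 with the block) and 0.236 for H3K27ac (0.0132 with the block).

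ITGAL, the gene of the CD11a chain, lies on the same chromosome as ITGAM and ITGAX (30483979 to 30534888, plus strand). H3K4me3 covered 20859 and 16383 bp in ATRA and 23909 and 16239 bp in the controls, so that the groups overlapped. The TSS peak was 6225 and 3790 bp in ATRA and 6124 and 5262 bp in the controls. Most of the window length came from the start sites of ZNF768 and ZNF747 downstream, and over the gene body alone H3K4me3 was 4935 and 3298 bp against 5655 and 4504 bp. H3K27ac covered 49137 and 37311 bp in ATRA and 36504 and 31391 bp in the controls. Its log2 change of 0.34 turned to -0.62 after scaling, with overlap, and limma gave an adjusted p of 0.609. Within the gene, 3965 bp around intron 11 and 1412 bp around intron 4 were under H3K27ac in ATRA alone, and 864 bp around intron 23 in the controls alone.

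**Figure D2:**
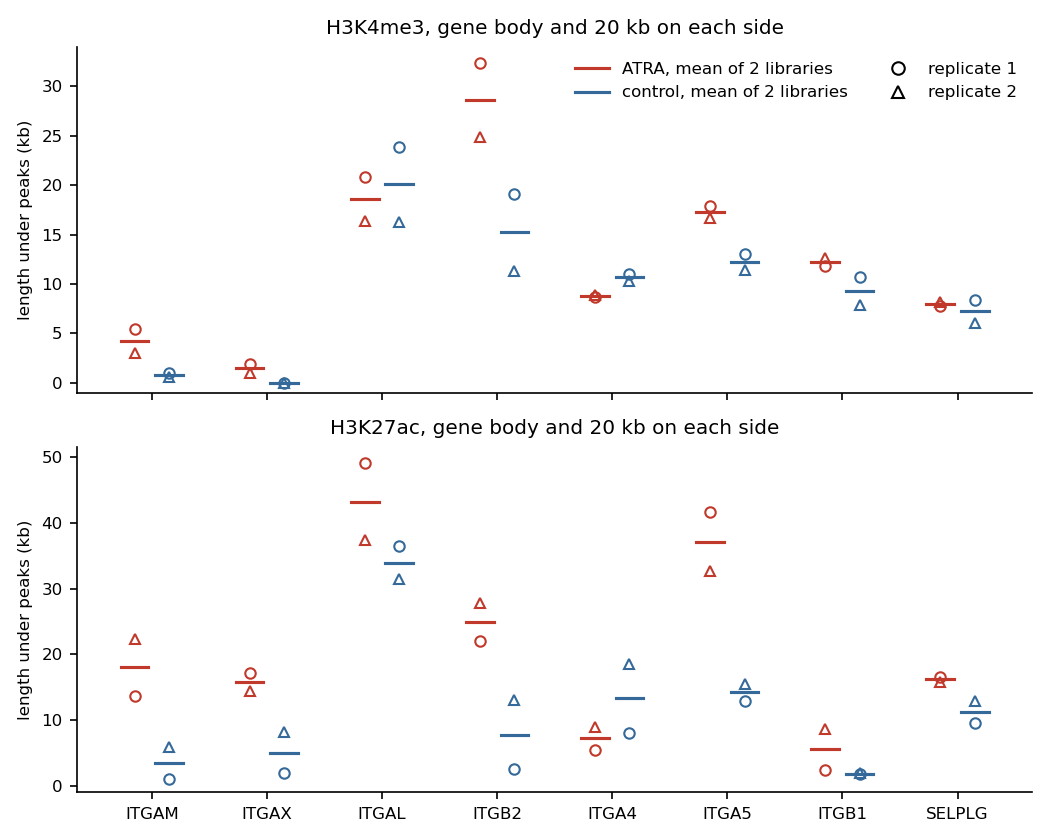
Length under peaks in kb over each gene body and 20 kb on each side, for H3K4me3 (upper) and H3K27ac (lower), with circles for replicate 1, triangles for replicate 2 and bars for the mean of 2 libraries. ITGAM, ITGAX, ITGB2, ITGA5 and ITGB1 have both ATRA libraries (red) above both controls (blue) for both marks, ITGAL and SELPLG overlap for H3K4me3, and ITGA4 has both ATRA libraries below both controls for H3K4me3.

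ITGA4, on chromosome 2 at 182321929 to 182403667 (plus strand), went the other way. Its only H3K4me3 peak measured 8694 and 8882 bp in ATRA and 11006 and 10326 bp in the controls. Both ATRA values lay below both controls, and the log2 change was -0.25 (-0.47 after scaling). This placed ITGA4 at the 3.28 percentile of all genes with an H3K4me3 peak. The difference was at the 3′ edge, which ended at 7100 and 7346 in ATRA and at 8714 and 9169 in the controls, in intron 2. The limma adjusted p was 0.523, and 0.434 with the block. H3K27ac covered 5497 and 9001 bp in ATRA and 8021 and 18590 bp in the controls, which overlap, with a log2 change of -0.79 (limma adjusted p 0.491). After scaling the change was -1.56 and the groups no longer overlapped. Over the gene body alone, without scaling, the H3K27ac change was -0.13, with overlap.

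The H3K27ac peak at the ITGA4 TSS measured 5278 and 7736 bp in ATRA and 5278 and 10114 bp in the controls. A stretch of 2743 bp upstream, at -18665 to -15923 from the TSS (chr2:182303448-182306190), was covered in both controls and in neither ATRA library. It was the longest H3K27ac stretch seen in the controls alone at any of the 8 genes. The 200 bases at its centre are shown, with capitals for the same motifs. They hold AGATAA at -17387 to -17382 and a TTNNGCAA match at -17377 to -17370, which occur in 11.7% and 8.16% of the central 200 bases of the 1814 H3K27ac peaks of the genome specific to the controls.
ITGA4 upstream, chr2:182304720-182304919, plus strand: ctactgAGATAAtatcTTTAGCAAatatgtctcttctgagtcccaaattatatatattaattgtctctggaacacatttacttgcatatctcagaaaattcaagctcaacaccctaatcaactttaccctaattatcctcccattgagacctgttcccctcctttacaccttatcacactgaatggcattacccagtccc

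**Figure D3:**
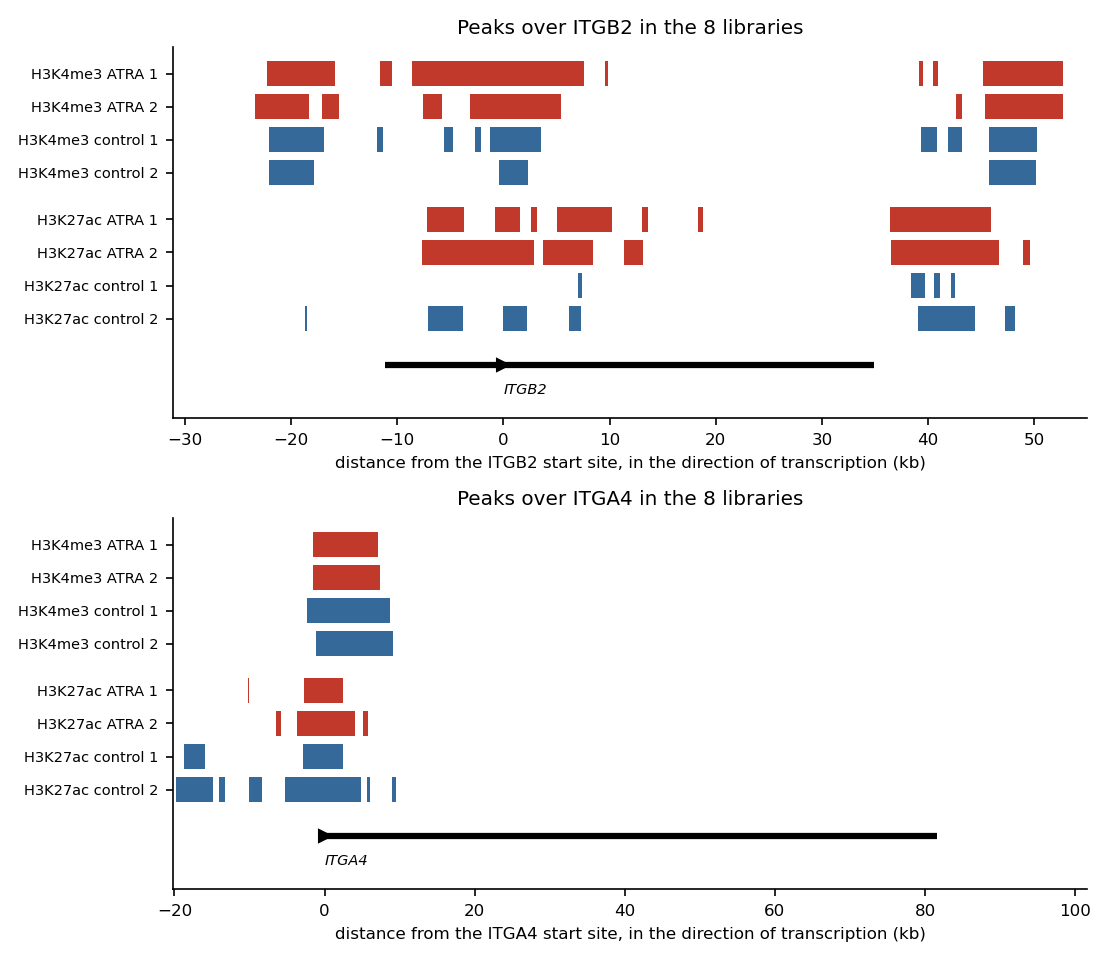
Peaks of both marks in the 8 libraries over ITGB2 (upper panel) and ITGA4 (lower panel), by distance from the start site in kb in the direction of transcription, with the gene body as a black bar and an arrowhead at the start site of the canonical transcript. At ITGB2 the ATRA peaks (red) are wider at the start site, and at ITGA4 the H3K4me3 peaks of the controls (blue) extend further into the gene and both controls have H3K27ac at -18665 to -15923 bp.

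ITGA5, on chromosome 12 at 54789045 to 54813050 (minus strand), had a start-site peak of H3K4me3 of similar length in all libraries, at 12056 and 12402 bp in ATRA and 11007 and 11422 bp in the controls. Over its window the mark covered 17891 and 16630 bp in ATRA and 13036 and 11422 bp in the controls. Part of that difference lay at ZNF385A downstream, and over the gene body alone the log2 change was 0.19 in place of 0.47. H3K27ac differed more, at 41575 and 32626 bp in ATRA and 12968 and 15472 bp in the controls, with a log2 change of 1.32 and no overlap. After scaling the change was 0.45 and the groups overlapped. Over the gene body alone, without scaling, the H3K27ac change was 0.81, with no overlap. The limma log2 change was 1.32 ± 0.31 with an adjusted p of 0.120, or 0.0147 with the block. Stretches under H3K27ac in ATRA alone summed to 12159 bp, the most of the 8 genes, with 2852 bp around intron 9 and 2485 and 2392 bp upstream at -7537 to -5053 and -12517 to -10126.

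ITGB1, on chromosome 10 at 33176201 to 33294720 (minus strand), had H3K4me3 of 11805 and 12607 bp in ATRA and 10673 and 7898 bp in the controls. The groups did not overlap, the log2 change was 0.36 (0.16 after scaling), and limma gave an adjusted p of 0.494. Its H3K27ac was short, at 2469 and 8694 bp in ATRA and 1790 and 1884 bp in the controls. The log2 change of 1.21 rested on ATRA replicate 2 and was 0.29 without it. After scaling it was 0.40, with overlap, and the limma adjusted p was 0.405. SELPLG, on chromosome 12 at 109015671 to 109027670 (minus strand), had H3K4me3 of 7791 and 8211 bp in ATRA and 8400 and 6031 bp in the controls, which overlap. Its H3K27ac measured 16522 and 15853 bp in ATRA and 9538 and 12975 bp in the controls, a log2 change of 0.49 that became -0.36 after scaling, with overlap. Limma gave SELPLG adjusted p-values of 0.759 and 0.448.

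**Figure D4:**
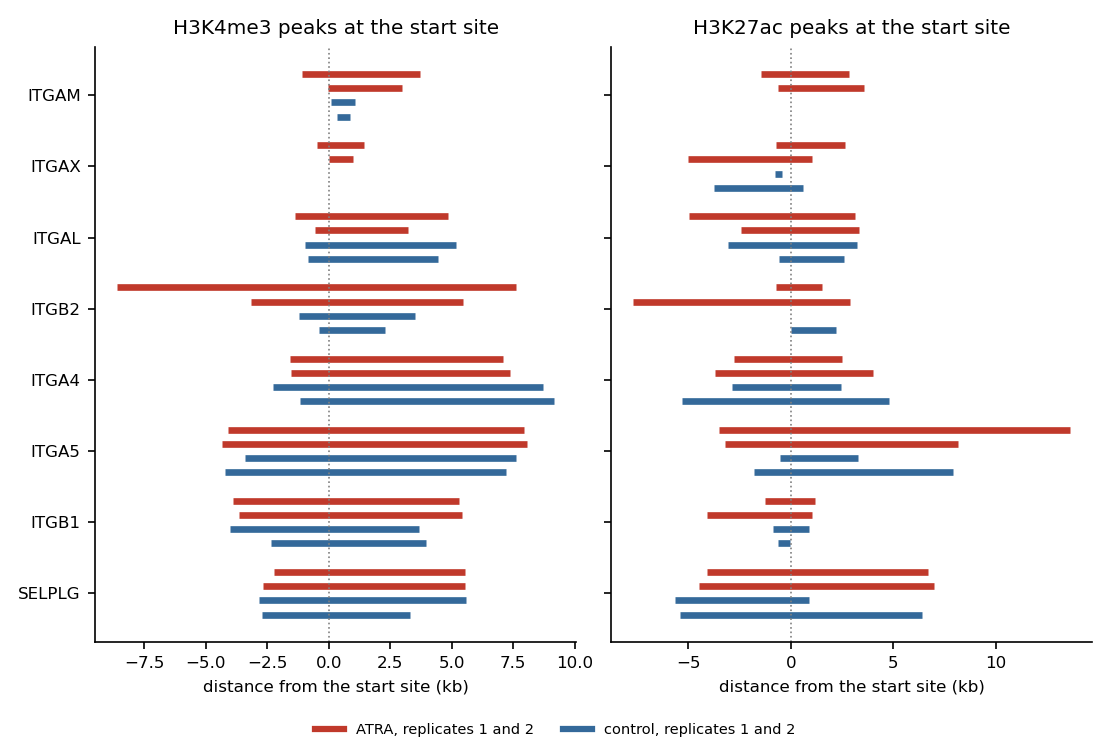
Extent of the peak at the start site of each gene, in kb from the start site (dotted line), for H3K4me3 (left) and H3K27ac (right). Within each gene the rows are ATRA replicates 1 and 2 (red) and control replicates 1 and 2 (blue), and a missing bar means no peak within 500 bp, as in both controls for H3K4me3 at ITGAX and for H3K27ac at ITGAM.

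Counted over the genes, a peak within 500 bp of the TSS was found for H3K4me3 in both ATRA libraries at 8 of 8 (53.6% of all genes) and in both controls at 7 of 8 (52.7%). For H3K27ac it was found at 8 of 8 in ATRA (40.1%) and at 6 of 8 in the controls (33.8%), the exceptions being ITGAM and ITGB2. ITGAM was thus the one gene with H3K27ac at the TSS in both ATRA libraries and no control, which held for 2.56% of all genes. No member had a TSS peak in both controls and no ATRA library (0.0996% of all genes for H3K4me3 and 0.338% for H3K27ac). The H3K27ac peaks at these sites had low deposited scores, with −log10 q from 0.577 to 8.76, against 3.001 to 44.9 for H3K4me3.

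Over the windows, H3K4me3 was longer in both ATRA libraries than in both controls for 5 of 8 genes (ITGAM, ITGAX, ITGB2, ITGA5 and ITGB1), beside 41.3% of the 14609 genes with a peak, and shorter for 1 of 8 (ITGA4), beside 3.39%. After scaling the counts were 5 and 2, with ITGAL the second, beside 16.0% and 25.4%. H3K27ac was longer for 7 of 8, beside 43.7% of 15477 genes, and shorter for 0 of 8, beside 3.86%. After scaling the counts were 3 (ITGAM, ITGAX and ITGB2) and 1 (ITGA4), beside 18.4% and 25.1%. ITGAM and ITGAX were counted separately here, although their windows share bases and H3K27ac peaks. Over the gene body alone, 5 of 8 were longer and 1 shorter for H3K4me3 (37.6% and 5.47% of genes), and 7 of 8 longer and 0 shorter for H3K27ac (36.5% and 4.98%). The median log2 change of the 8 genes was 0.41 for H3K4me3 and 1.27 for H3K27ac, beside 0.16 and 0.49 over all genes. Scaling moved the all-gene medians to -0.036 and -0.13 and those of the 8 genes to 0.21 and 0.43.

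**Figure D5:**
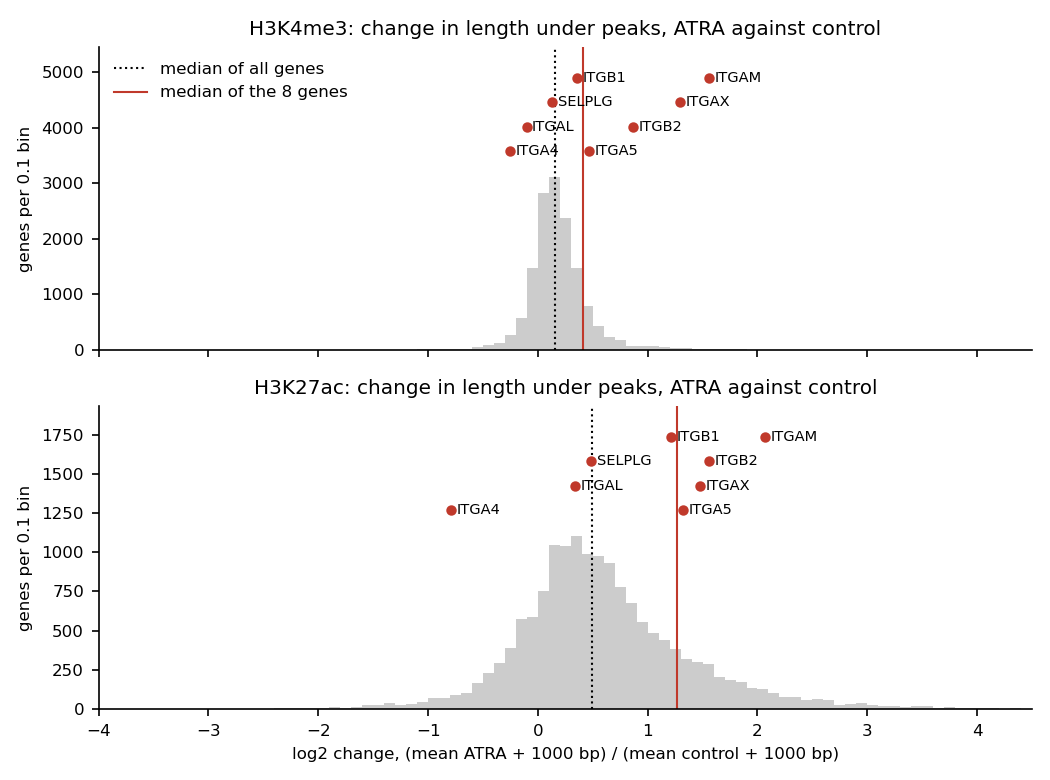
Histograms of the log2 change in length under peaks, ATRA against control, for all protein-coding genes with a peak (grey, genes per bin of 0.1), with the 8 adhesion genes as red points placed at their change and stacked in height only to keep the names apart. The dotted line is the median of all genes (0.16 for H3K4me3, 0.49 for H3K27ac) and the red line that of the 8 genes (0.41 and 1.27).

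By limma none of the 8 genes passed an adjusted p of 0.05 for either mark, and 4 of 8 for each mark had an unadjusted p under 0.05 (10.7% and 20.2% of all windows). The same fit called 0.0281% of windows higher and 0.0211% lower for H3K4me3, and 0.0% in either direction for H3K27ac. With the replicate block it called 2 of 8 higher for H3K4me3 (ITGAM and ITGB2), beside 2.05% of windows, and 4 of 8 higher for H3K27ac (ITGAM, ITGAX, ITGB2 and ITGA5), beside 24.0%. It called 0 of 8 lower for either mark, beside 0.211% and 1.46%. Both fits used unscaled lengths. After scaling, limma without the block called 0 of 8 for either mark. It called 97 of 14210 windows for H3K4me3 and 0 of 14356 for H3K27ac. Adjusted p-values for H3K27ac were then 0.269 (ITGAM), 0.462 (ITGAX), 0.442 (ITGB2) and 0.698 (ITGA5). For H3K4me3 they were 0.0962 (ITGAM) and 0.196 (ITGB2). Control replicate 2 of H3K27ac set the size of several changes, and without it they were 3.201 for ITGAM, 2.51 for ITGAX, 2.87 for ITGB2 and -0.13 for ITGA4. With peaks of a −log10 q of at least 5 alone, that of ITGAM was 0.35. An exact permutation test of 2 against 2 libraries cannot give a two-sided p below 0.333.

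By the study's scheme, peaks that overlap between replicates are the peaks of a condition, and those with no overlap in the other condition are specific. The study does not say which replicate's peaks were kept, and those of replicate 1 were kept here. In the windows, 20 of 36 ATRA peaks of H3K27ac were specific (55.6%, beside 49.7% of those of the genome) and 2 of 24 control peaks (8.33%, beside 14.02%). For H3K4me3 the counts were 4 of 16 (25.0%, beside 14.4%) and 1 of 13 (7.69%, beside 3.01%). These counts depended on single libraries. Without control replicate 1, H3K27ac gave 12 ATRA-specific and 18 control-specific peaks, and without ATRA replicate 1 or 2 it gave 39 or 34 ATRA-specific peaks. For H3K4me3, 10 were ATRA-specific without ATRA replicate 2, and 2 ATRA-specific and 6 control-specific without control replicate 2.

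A list of 59 other adhesion genes was counted in the same way, but its counts and log2 changes were computed without scaling by the library total. H3K4me3 was longer without overlap for 24 of the 50 with a peak and shorter for 1, and H3K27ac was longer for 30 of 53 and shorter for 1, beside the shares of all genes given above (41.3% and 3.39%, 43.7% and 3.86%). The medians were 0.16 and 1.13. Among 13 other integrin alpha chains, 3 of 11 with a peak were longer for H3K4me3 and 8 of 12 for H3K27ac, with changes in H3K27ac from -0.61 (ITGA2, the collagen-binding alpha 2 chain) to 2.61 (ITGAE, which pairs with beta 7). Among 6 other beta chains, 3 of 4 and 2 of 4 were longer, with H3K27ac changes from 0.56 (ITGB8) to 1.53 (ITGB7). Among 13 genes that activate integrins or link them to actin, 7 were longer and 1 shorter for H3K4me3, and 8 were longer for H3K27ac, with H3K27ac changes from 0.37 (RAP1B, a small GTPase) to 2.15 (SKAP2, an adaptor).

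The selectins, receptors that start rolling, had longer H3K4me3 for 3 of 3. SELP, the selectin of platelets and endothelium, had H3K27ac of 7848 and 17586 bp in ATRA and 0 and 1919 bp in the controls, a log2 change of 2.81. Of 7 enzymes that modify selectin ligands, 4 of 6 with a peak were longer for H3K4me3 and 3 of 7 for H3K27ac, from -0.05 (FUT7, a fucosyltransferase) to 1.83 (B4GALT1, a galactosyltransferase). Of 11 integrin ligands and junction molecules, 3 of 8 and 5 of 8 were longer. ICAM4, a ligand of beta 2 integrins, had H3K27ac of 6897 and 12785 bp in ATRA and 0 bp in both controls. ICAM2 had 563 and 869 bp against 1427 and 938 bp.

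Of 6 other surface molecules, 1 of 5 with a peak was longer for H3K4me3 and 3 of 6 for H3K27ac. CEACAM1, an adhesion receptor of granulocytes, was the only gene of the 59 called by limma, with H3K4me3 of 8229 and 6348 bp in ATRA and 0 bp in both controls (adjusted p 0.0236). The call was kept in 2 of 8 other limma fits, after scaling (0.00335) and with the replicate block (6.1e-05), and lost in 6, with adjusted p-values of 0.185 over the gene body alone, 0.122 with a pseudocount of 100 bp, 0.380 with no filter, 0.361 at a −log10 q of at least 5, and 0.0785 and 0.209 without control replicates 1 and 2. CD34, a marker of progenitors, had an H3K27ac change of -0.44 with overlap.

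The genes whose 8 library values lay nearest to those of ITGAM, by Euclidean distance over log2 (length + 1000 bp), were SDS, SDSL and CPQ, at distances of 1.20, 1.21 and 1.23. SDS and SDSL are neighbours that share the same H3K4me3 peaks. Nearest to ITGB2 were XPO7, INPP5B and PGAM1, at 1.09, 1.13 and 1.20.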

How the data were processed

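H3K4me3 and H3K27ac were measured by ChIP-seq in HL-60 cells, with 2 libraries per mark and group. Per the study's methods and the labels, the authors trimmed adapters (cutadapt) and mapped with Bowtie against hg19. MACS2 (-g hs, --nomodel, --broad) was then run on each library separately. Input libraries were made from fragmented genomic DNA. Versions, and whether the input entered the peak calling, are not given in the sources used here. The deposited peak lists hold positions, a score, and −log10 q values. The deposited score is 10 times the −log10 q and was not used. The deposited columns for fold enrichment and −log10 p hold impossible values and were not used. No counts are given, so read depth is unknown.

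Genes and transcripts came from GENCODE release 44 mapped to GRCh37, the build of the files. The TSS was that of the MANE Select transcript (94.0% of genes) or else the canonical one. The length under peaks was taken per library over each gene body and 20 kb on each side. Limma 3.58.1 in R 4.3.3 tested log2(length + 1000 bp) with a mean-variance trend over windows with a peak in at least 2 libraries of the mark (Benjamini-Hochberg, threshold 0.05). Overlapping windows share peaks. The script was tested on simulated data. Python 3.11.15 did the interval work. Promoter sequences were read from the GRCh37 FASTA. Other flanks, pseudocounts, scalings, q limits and left-out replicates were tried.

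Same-numbered ATRA and control libraries of a mark carry 1 shared tag in the deposited peak names, so the number was read as a pairing. Their deviations from the group means correlated at 0.223 (H3K4me3) and 0.556 (H3K27ac) over 75829 bins of 40 kb. With 2 libraries per group, the opposite pairing would give the same values with a negative sign. Library totals can also enter. For H3K27ac, replicate 2 covered more than replicate 1 in both groups (86.1 against 64.8 Mb in ATRA, 54.0 against 28.8 Mb in the controls). These correlations therefore cannot settle the pairing, and what they reflect was not tested.

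The genes and the list of 59 were chosen with earlier results of these data known. All listed genes are named. Of the 59, the highest and the lowest in H3K27ac change of each role group are named. Some items of these lists and some promoter sequences are not reported here.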

Additional observations from a re-analysis of the deposited data

How the results depend on the processing

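Of 198 alternative values of single windows, 149 moved by less than the replicate spread and 46 by more, and 3 turned the direction of genes whose groups did not overlap, all for H3K27ac: ITGAL to -0.62 when scaled by the library total and to -0.059 by the number of peaks, and SELPLG to -0.36 when scaled. For H3K4me3, where these genes overlapped, ITGAL (-0.10) also crossed 0 with 50 kb flanks (0.030) and without ATRA replicate 2 (0.053) or control replicate 1 (0.19), and SELPLG (0.13) when scaled (-0.057) and without control replicate 2 (-0.063). With peak numbers in place of length, the median changes were 0.10 (H3K4me3) and 0.36 (H3K27ac), and 2 and 3 genes were higher. Scaling gave a median of 0.43 for H3K27ac, with 3 genes higher and 1 lower, and 2 lower for H3K4me3. A −log10 q of at least 5 left 1 gene higher for H3K27ac and 0 with an H3K27ac TSS peak in both libraries of either group. Leaving out each replicate in turn, 1 to 3 genes were lower for H3K4me3 and 0 to 1 for H3K27ac. The 3 arose without control replicate 2.

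With the replicate block, limma called 2 genes for H3K4me3 and 4 for H3K27ac, and 321 and 3660 windows in place of 7 and 0, and 1 gene was lower for H3K27ac within both pairs. It changed no other call. Leaving out a library, limma called 0 to 4 genes for H3K27ac. The 4 arose without control replicate 2, with that group's single library assumed to vary like the others. Limma calls were the same in 142 of 152 alternatives for single genes and gained in 10.

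For specific peaks (ATRA and control), a reciprocal overlap of 50% gave 2 control peaks for H3K4me3 and 10 and 5 for H3K27ac. Keeping the peaks of replicate 2 gave 6 and 1 for H3K4me3, and 24 and 3 for H3K27ac. Requiring absence from each library of the other group gave 2 and 0, and 11 and 1. The q limit gave 0 control peaks for H3K4me3 and 2 and 0 for H3K27ac. Leaving out replicates, added after the data were seen, gave 2 to 10 and 0 to 6 for H3K4me3, and 12 to 39 and 1 to 18 for H3K27ac. The cause of these shifts was not tested. Without read counts, peak length cannot be set against depth.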
